A study of Mus musculus with 9 samples.

Results

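The interleukin 1 family and its receptors were followed through sorted myeloid cells of a mouse skin wound. The 10 genes were taken as a list: Il1a, Il1b, Il1rn, Il1r1, Il1r2, Il1rap, Il18, Il18bp, Il33 and Il1rl1. Each was read from its probe set with a single gene symbol and, where there were several, from the probe set with the highest mean over the 9 arrays. This gave values for 9 of the 10 genes, among 22180 genes in all. Il1rl1, the receptor of interleukin 33, was not analysed here. Male C57BL/6J mice aged 8 weeks received an incision of the plantar hindpaw, and cells were taken from the paw 24 h later. Cells carrying the integrin CD11b, found on myeloid cells, and lacking the neutrophil protein Ly6G were sorted into Ly6C low, Ly6C medium and Ly6C high gates, with 3 arrays each. All gates share the wound, the strain and the time of collection, and there was no unwounded group. The labels do not say whether the replicates are separate animals or pools of animals, so p-values speak only of the spread among these samples, and that spread may be technical.

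Values are log2 intensities, and an increase of 1 is a doubling of signal. The array medians lay between 3.93 and 4.10 and serve as a guide to how dim a gene was. With 3 arrays a gate, precision is limited by their number. The transcript of the sorted protein followed the sort, with Ly6c2 averaging 8.33 ± 0.93 in Ly6C low, 11.22 ± 0.04 in Ly6C medium and 12.27 ± 0.20 in Ly6C high (SD, n = 3 each). Ly6c2 was brighter on replicate 3 of Ly6C low (9.40) than on replicates 1 and 2 (7.69 and 7.90). Itgam, which encodes CD11b, averaged 10.58, 10.90 and 11.02 in low, medium and high, and Ly6g stayed dim at 3.58, 3.06 and 3.02. Markers of tissue macrophages and dendritic cells were higher in Ly6C low than in Ly6C high. Of those measured, 7 of 8 and 5 of 7 passed the threshold. Also passing as higher were 3 of 6 eosinophil markers, but all 6 averaged under 6 over the arrays. Of all genes 3.35% were higher and 2.32% lower in this comparison. Lower in Ly6C low were 9 of 10 fibroblast markers and 5 of 7 classical monocyte markers (Ly6c2, Ccr2, Chil3, Vcan and Plac8). From the same monocyte list, F13a1 was higher in low by 0.88 without passing (limma adjusted p = 0.0541), and Fn1 differed by -0.12. The mean of all 7 monocyte markers was 8.76 to 9.49 on low, 10.34 to 10.47 on medium and 10.80 to 10.92 on high arrays. The part of these cell types in the values below was not tested.

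Interleukin 1 alpha and interleukin 1 beta are early alarm signals of injured tissue. Both bind the receptor encoded by Il1r1, which recruits the shared accessory chain encoded by Il1rap and signals through MYD88 to NF-kappaB. The system is held in check by a soluble antagonist from Il1rn, which occupies the receptor without signalling, and by a decoy receptor from Il1r2, which binds the cytokine but lacks the signalling domain. Interleukin 1 beta and interleukin 18 are made as precursors that are cut by caspase-1 in inflammasomes, and interleukin 18 is neutralized by the binding protein from Il18bp. Interleukin 33 is a nuclear alarm signal of stromal and epithelial cells. In wounds, monocytes and macrophages are a known source of interleukin 1 beta.

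Several of these genes lie side by side. In the RefSeq annotation of GRCm38.p6, Il1a and Il1b are neighbours among protein-coding genes on chromosome 2, where Il1rn is also found, and Il1r2 and Il1r1 are neighbours on chromosome 1. RefSeq promoter windows, from 250 bases before to 50 bases after an annotated start, were available for all 10 genes (15 windows). They are shown for the 4 genes with the same replicate pattern described further on, Il1a, Il1b, Il1rn and Il1r1. Capitals mark matches, on either strand, to a TATA box (TATAAA), a C/EBP motif (TTNNGNAA), an AP-1 motif (TGANTCA) or the NF-kappaB consensus. For Il1rn and Il1r1, which have several windows, 1 window each is printed, chosen because it holds an AP-1 or an NF-kappaB match.
Il1a, chr2:129309923-129310222, minus strand, GRCm38.p6: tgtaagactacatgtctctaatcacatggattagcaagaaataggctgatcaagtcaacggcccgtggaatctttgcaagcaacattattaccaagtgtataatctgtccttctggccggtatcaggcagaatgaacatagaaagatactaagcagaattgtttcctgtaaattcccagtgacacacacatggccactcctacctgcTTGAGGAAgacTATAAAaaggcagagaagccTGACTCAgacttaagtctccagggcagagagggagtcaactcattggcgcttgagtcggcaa
Il1b, chr2:129371090-129371389, minus strand, GRCm38.p6: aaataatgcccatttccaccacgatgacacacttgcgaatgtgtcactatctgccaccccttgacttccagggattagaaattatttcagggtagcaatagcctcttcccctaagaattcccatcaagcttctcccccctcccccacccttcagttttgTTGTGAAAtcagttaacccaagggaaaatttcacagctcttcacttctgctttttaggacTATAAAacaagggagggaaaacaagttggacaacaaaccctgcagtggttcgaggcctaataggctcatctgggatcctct
Il1rn, chr2:24336610-24336909, plus strand, GRCm38.p6: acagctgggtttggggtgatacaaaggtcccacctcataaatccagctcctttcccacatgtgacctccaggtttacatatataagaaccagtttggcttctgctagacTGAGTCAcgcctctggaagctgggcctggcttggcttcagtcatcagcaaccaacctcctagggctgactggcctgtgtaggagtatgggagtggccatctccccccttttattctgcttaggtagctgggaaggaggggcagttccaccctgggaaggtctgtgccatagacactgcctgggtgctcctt
Il1r1, chr1:40266336-40266635, plus strand, GRCm38.p6: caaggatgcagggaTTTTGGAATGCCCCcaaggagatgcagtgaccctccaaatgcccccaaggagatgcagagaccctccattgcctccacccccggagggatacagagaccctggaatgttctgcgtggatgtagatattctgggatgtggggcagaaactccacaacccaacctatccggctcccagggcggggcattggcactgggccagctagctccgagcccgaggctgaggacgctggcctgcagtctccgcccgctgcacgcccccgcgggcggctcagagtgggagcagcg
The Il1a and Il1b windows each hold a TATA box at nearly the same distance from the start, at positions -32 to -27 in Il1a and -31 to -26 in Il1b, where position 1 is the first base at the start. A C/EBP match lies upstream of it in each, at -43 to -36 in Il1a and -91 to -84 in Il1b. An AP-1 match lies at -12 to -6 in Il1a and at -141 to -135 in the Il1rn window. In the Il1r1 window a C/EBP match (-236 to -229) overlaps an NF-kappaB match on the reverse strand (-232 to -223). Such matches are common. Of 32851 promoter windows of this length, 13.6% hold the TATA box, 40.7% the C/EBP motif, 7.81% the AP-1 motif and 8.46% the NF-kappaB consensus. A match describes letters in the window and says nothing of binding in these cells.

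Of the 9 measured genes, 6 had their lowest mean in Ly6C low cells (Il1a, Il1b, Il1rn, Il1r1, Il1rap and Il18bp) and 3 in Ly6C medium cells (Il1r2, Il18 and Il33), but with all arrays none of the differences between gates passed the threshold over all genes. Between Ly6C low and Ly6C high, 8 of the 9 measured genes had a negative log2 difference, with a median of -0.43, against 0.01 for all genes tested, of which 47.3% were negative. With limma, 0 of 9 passed at an adjusted p of 0.05 in this comparison, where 5.67% of all genes did (3.35% higher and 2.32% lower). At an unadjusted p under 0.05 there were 5 (Il1b, Il1rn, Il1r1, Il18bp and Il33), against 17.9% of all genes, and a test without moderation over genes also passed 0 after adjustment. In 4 genes (Il1b, Il1rn, Il1r1 and Il33) every Ly6C low array lay below every Ly6C high array, as was the case for 8.76% of all genes, and in 0 genes every low array lay above, against 11.4%. Between Ly6C medium and Ly6C high, limma passed 0 of 9, against 0.239% of all genes (0.0406% higher and 0.198% lower), and 2 genes (Il1r2 and Il33) had an unadjusted p under 0.05, against 7.53%. Every medium array lay below every high array in 1 gene (Il33), against 4.93% of all genes, and above in 0, against 5.77%. Between Ly6C low and Ly6C medium it passed 0 of 9, against 1.93% of all genes (1.38% higher and 0.541% lower), and 4 genes (Il1rn, Il1r1, Il1r2 and Il18bp) had an unadjusted p under 0.05, against 14.1%. Low arrays lay wholly above medium arrays in 2 genes (Il1r2 and Il33), against 9.25% of all genes, and wholly below in 2 (Il1rn and Il18bp), against 7.58%. The test without moderation passed 0 of 9 in these comparisons as well. The comparisons share the arrays of a gate and are not independent of each other. Because sorted populations were measured in bulk, fewer cells that make a transcript and less transcript per cell cannot be told apart.

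**Figure D1:**
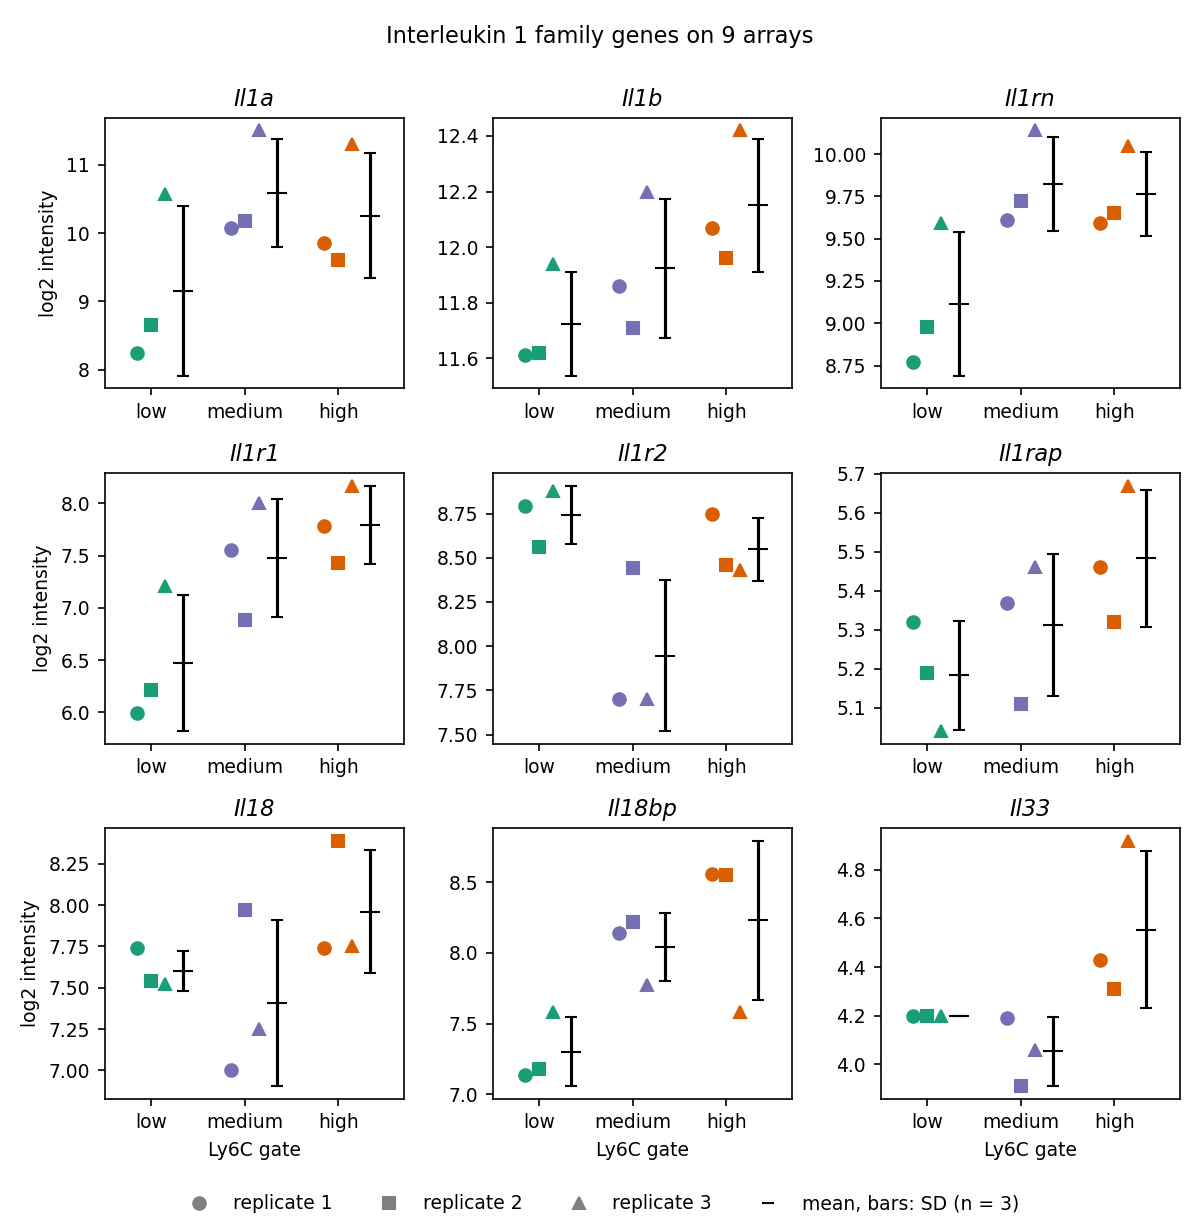
Log2 intensity (vertical axes, each on its own range) of the 9 measured genes on each of 9 arrays, by Ly6C gate, with symbols for the replicate number and bars for the mean and SD. Il1a, Il1b, Il1rn and Il1r1 are brightest on replicate 3 of each gate, and Il1r2 is the only gene with its highest mean in Ly6C low (8.74).

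Il1a, the precursor of an interleukin that is released from dying cells and also acts at the cell surface, varied most between arrays. It read 8.24, 8.65 and 10.57 on Ly6C low arrays, 10.08, 10.18 and 11.50 on Ly6C medium arrays and 9.85, 9.61 and 11.30 on Ly6C high arrays. Replicate 3 was the brightest array in each gate, and the gates overlapped because Ly6C low replicate 3 was brighter than replicates 1 and 2 of Ly6C medium and Ly6C high. Means were 9.15 ± 1.24 in low, 10.59 ± 0.79 in medium and 10.25 ± 0.91 in high (SD, n = 3). The difference low minus high was -1.10 (SE 0.67, limma adjusted p = 0.477) and low minus medium was -1.44 (SE 0.67, adjusted p = 0.390). Medium minus high was 0.33 (adjusted p = 0.937), so the order of these neighbours was not resolved. Leaving out 1 array at a time gave low minus high between -1.81 (without Ly6C low replicate 3) and -0.58 (without Ly6C high replicate 3), or -0.64 without Ly6C low replicate 1, and passed the threshold in 0 of 9 cases (adjusted p = 0.128 to 0.817). It passed with replicate 3 of every gate left out, a set chosen after the data were seen (-1.28 against high, limma adjusted p = 0.0301, and -1.69 against medium, adjusted p = 0.0361). With all arrays and the replicate number added to the fit as a fixed block, low minus high also passed (limma adjusted p = 0.0167). The labels do not give that pairing.

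Il1b, the secreted and inflammasome-dependent interleukin 1, was bright on every array and moved little. It read 11.61, 11.62 and 11.94 in Ly6C low, 11.86, 11.71 and 12.20 in Ly6C medium and 12.07, 11.96 and 12.42 in Ly6C high. The means of 11.72 ± 0.19, 11.92 ± 0.25 and 12.15 ± 0.24 (SD, n = 3) followed the order of the Ly6C gates. The low and high arrays did not overlap, though Ly6C low replicate 3 (11.94) lay just under the dimmest Ly6C high array (11.96). Low minus high was -0.43, a 1.35-fold difference with a 95% interval of -0.81 to -0.04 and a limma adjusted p of 0.219. Neither step of the order was resolved, with -0.20 for low minus medium (adjusted p = 0.678) and -0.23 for medium minus high (adjusted p = 0.804).

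Il1rn, which encodes the receptor antagonist, was dimmest in Ly6C low. Its values were 8.77, 8.98 and 9.59 in Ly6C low, 9.61, 9.72 and 10.14 in Ly6C medium and 9.59, 9.65 and 10.05 in Ly6C high. The low arrays lay below all others, with Ly6C low replicate 3 meeting the dimmest Ly6C high array at 9.59 after rounding. The mean of low (9.11 ± 0.42) was below that of medium (9.82 ± 0.28) by -0.71 (SE 0.23, limma adjusted p = 0.189) and below that of high (9.76 ± 0.25; SD, n = 3) by -0.65 (SE 0.23, adjusted p = 0.163). Medium minus high was 0.06, with a 95% interval of -0.46 to 0.58. Leaving out 1 array at a time, low minus high lay between -0.89 and -0.48 and missed the threshold in 8 of 9 cases (limma adjusted p up to 0.428 without Ly6C low replicate 1). It passed without Ly6C low replicate 3 (-0.89, adjusted p = 0.0425). It also passed without replicate 3 of every gate, a set chosen after the data were seen (-0.75, adjusted p = 0.0496). With all arrays and the replicate number as a fixed block, a pairing the labels do not give, it passed as well (limma adjusted p = 0.0148).

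**Figure D2:**
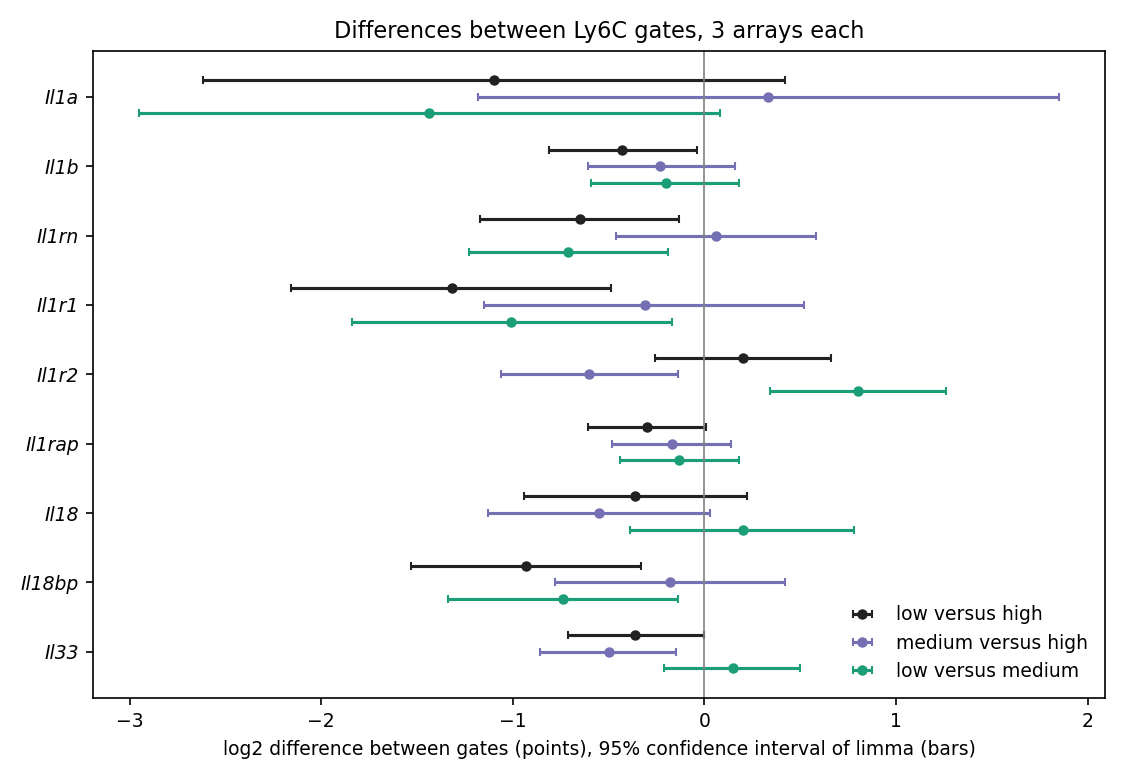
Log2 differences between gates (horizontal axis) for the 9 measured genes, with 95% confidence intervals from limma that are not adjusted over genes. Il1r1 (-1.32), Il1a (-1.10) and Il18bp (-0.93) have the largest negative differences of low minus high, and the Il1r2 difference of low minus medium (0.80) lies above 0.

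The balance of inhibitor to partner was read as a log2 difference within each array. It shows unequal change between gates and not which transcript is more abundant. Il1rn minus Il1b averaged -2.61 ± 0.24 in Ly6C low, -2.10 ± 0.13 in Ly6C medium and -2.39 ± 0.09 in Ly6C high (SD, n = 3). The antagonist was therefore lower relative to Il1b in low than in medium, by -0.51 with arrays that did not overlap. It was higher in medium than in high by 0.29, again without overlap (exact two-sided permutation p = 0.1 for each). Il1r2 minus Il1r1 was 2.80, 2.35 and 1.67 on Ly6C low arrays, 0.15, 1.56 and -0.30 on Ly6C medium arrays and 0.97, 1.04 and 0.26 on Ly6C high arrays. It averaged 2.28 ± 0.57 in Ly6C low, 0.47 ± 0.97 in Ly6C medium and 0.76 ± 0.43 in Ly6C high. Every low array lay above every medium and high array, so the decoy receptor was higher relative to the signalling receptor in low (1.81 against medium and 1.52 against high, exact permutation p = 0.1 for each). With 3 arrays against 3, no smaller p than 0.1 can be reached. Over the 9 contrasts the lowest Benjamini-Hochberg adjusted p was 0.18, so none passed.

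**Figure D3:**
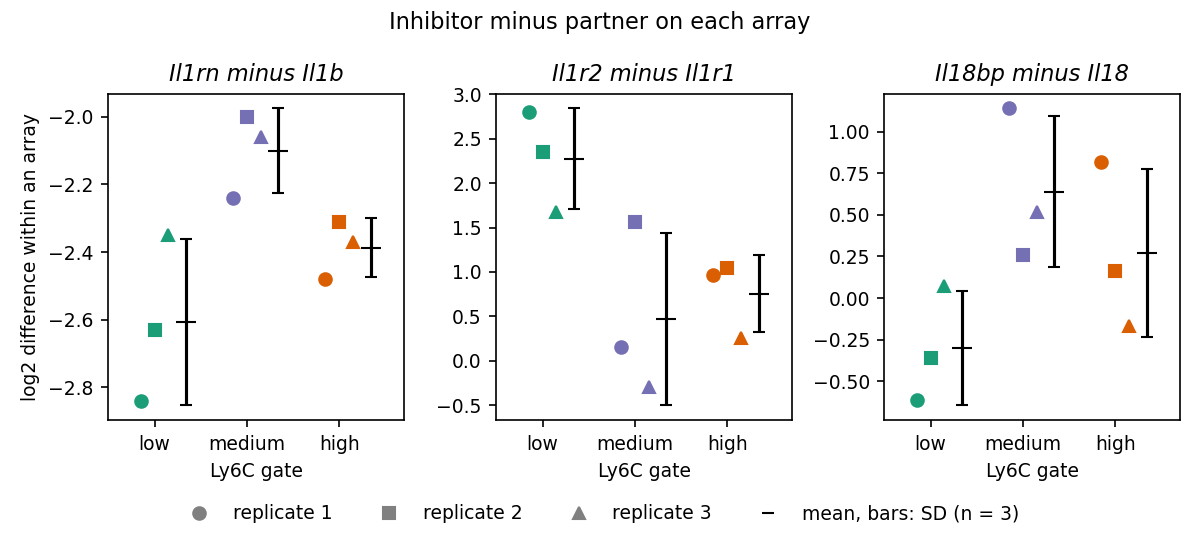
Log2 difference within an array (vertical axes) of Il1rn minus Il1b, Il1r2 minus Il1r1 and Il18bp minus Il18, by Ly6C gate, with symbols for the replicate number and bars for the mean and SD. The 3 Ly6C low arrays lie above all others for Il1r2 minus Il1r1 and below all Ly6C medium arrays for the other contrasts.

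Among the receptors, Il1r1, the signalling receptor for both interleukin 1 cytokines, had the largest difference between Ly6C low and Ly6C high. It read 5.99, 6.21 and 7.21 in Ly6C low, 7.55, 6.88 and 8.00 in Ly6C medium and 7.78, 7.43 and 8.17 in Ly6C high. The low arrays lay below all high arrays, while Ly6C low replicate 3 was brighter than Ly6C medium replicate 2. Means were 6.47 ± 0.65 in low, 7.48 ± 0.57 in medium and 7.79 ± 0.37 in high (SD, n = 3). Low was 2.5-fold below high (log2 difference -1.32, SE 0.37, limma adjusted p = 0.0786) and 2.01-fold below medium (-1.01, adjusted p = 0.246). Medium minus high was -0.31 (adjusted p = 0.877). Leaving out 1 array at a time, low minus high lay between -1.69 and -1.08 and missed the threshold in 8 of 9 cases (limma adjusted p up to 0.243 without Ly6C low replicate 1). It passed without Ly6C low replicate 3 (-1.69, adjusted p = 0.0251) and without replicate 3 of every gate, a set chosen after the data were seen (-1.5, adjusted p = 0.0469). It also passed with dim genes left out (adjusted p = 0.0415 and 0.0294 for the filters on the array median and on a log2 value of 6, where 13.1% and 20.7% of the genes kept passed). With all arrays and the replicate number as a fixed block, a pairing the labels do not give, it passed as well (limma adjusted p = 0.00826).

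Fibroblasts also make this receptor, and the 10 fibroblast markers were read beside it. Their mean log2 value ranged from 4.84 to 5.04 on Ly6C low arrays, from 5.30 to 5.48 on Ly6C medium arrays and from 7.12 to 8.21 on Ly6C high arrays. In low versus high 9 of the 10 were lower and 0 higher, and in medium versus high 7 were lower and 0 higher (median -2.52). Of all genes 2.32% and 0.198% were lower in these comparisons. No marker gave a zero value, since a log2 intensity has none, but Lum, Pdgfra, Pdgfrb, Fbln1 and Postn averaged under 6 over the arrays. In low versus medium 1 marker was lower (Dcn, -0.99, limma adjusted p = 0.0199) and 0 higher, where 0.541% of all genes were lower. The part of fibroblasts in the Il1r1 values was not tested.

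Il1r2, the decoy receptor, was dimmest in Ly6C medium. It read 8.79, 8.56 and 8.88 in Ly6C low, 7.70, 8.44 and 7.70 in Ly6C medium and 8.75, 8.46 and 8.43 in Ly6C high. Ly6C medium replicate 2 stood close to the other gates, and the medium and high arrays overlapped through it. Low (8.74 ± 0.16) exceeded medium (7.95 ± 0.43) by 0.80 (SE 0.20, limma adjusted p = 0.0975), and medium was below high (8.55 ± 0.18; SD, n = 3) by -0.60 (adjusted p = 0.508). Low minus high was 0.20, with a 95% interval of -0.26 to 0.66. Leaving out 1 array at a time, low minus medium lay between 0.67 and 1.04 and missed the threshold in 8 of 9 cases (limma adjusted p up to 0.274 without Ly6C medium replicate 3). It passed without Ly6C medium replicate 2 (1.04, adjusted p = 0.0237) and among genes of at least 6 on 3 arrays (adjusted p = 0.0435), of which 9.4% passed. Neutrophils are known for this receptor, and their 10 markers had mean values of 4.70 to 5.86 on low, 4.92 to 5.54 on medium and 4.35 to 4.92 on high arrays, with 7 of the 10 averaging under 6. The markers went both ways. In low versus high Retnlg was higher (3.91 on the log2 scale, limma adjusted p = 0.00712) and Mmp8 was lower (-2.78, adjusted p = 0.00222), while between low and medium only Mmp8 passed (-2.15, adjusted p = 0.0175). S100a8 averaged 8.73, 9.08 and 7.47 and S100a9 averaged 8.25, 7.90 and 6.66 in low, medium and high. Their part in the Il1r2 values was not tested.

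Il1rap, the accessory chain that Il1r1 and the interleukin 33 receptor need to signal, was dim. It read 5.32, 5.19 and 5.04 in Ly6C low, 5.37, 5.11 and 5.46 in Ly6C medium and 5.46, 5.32 and 5.67 in Ly6C high. The gates overlapped throughout, and low minus high was -0.30 (SE 0.14, limma adjusted p = 0.304). It was the only member with several probe sets, and the other 2 of its 3 lay between 2.46 and 3.12 on all arrays, below the array medians.

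Il18, the interferon gamma inducing cytokine of the family, overlapped between all gates. It read 7.74, 7.54 and 7.52 in Ly6C low, 7.0, 7.97 and 7.25 in Ly6C medium and 7.74, 8.39 and 7.75 in Ly6C high. The brightest array of medium and of high was replicate 2, and the dimmest was Ly6C medium replicate 1. Low minus high was -0.36 (limma adjusted p = 0.570), medium minus high was -0.55 (adjusted p = 0.674) and low minus medium was 0.20 (adjusted p = 0.808).

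Its antagonist Il18bp, a soluble protein that traps interleukin 18, was dimmer in Ly6C low on most arrays. It read 7.14, 7.18 and 7.58 in Ly6C low, 8.14, 8.22 and 7.77 in Ly6C medium and 8.56, 8.55 and 7.58 in Ly6C high. All low arrays lay below all medium arrays, but Ly6C high replicate 3 equalled Ly6C low replicate 3 at 7.58. Means were 7.30 ± 0.24 in low, 8.05 ± 0.24 in medium and 8.23 ± 0.56 in high (SD, n = 3). Low minus high was -0.93, a 1.9-fold difference (SE 0.27, limma adjusted p = 0.0859), and low minus medium was -0.74 (adjusted p = 0.234). Ly6C high replicate 3 set the spread of its gate. Leaving out 1 array at a time, low minus high lay between -1.25 and -0.76 and missed the threshold in 8 of 9 cases (limma adjusted p up to 0.243 without Ly6C low replicate 1). Without Ly6C high replicate 3 it was -1.25 (adjusted p = 0.0108). Without replicate 3 of every gate low was lower than high by -1.39 (adjusted p = 0.00773) and than medium by -1.02 (adjusted p = 0.0383). That set was chosen after the data were seen, and it leaves out the Ly6C high array that equalled a low array. With dim genes left out, low versus high also passed (adjusted p = 0.049 and 0.0355 for the filters given for Il1r1). Il18bp minus Il18 within an array averaged -0.30 ± 0.34 in low, 0.64 ± 0.46 in medium and 0.27 ± 0.50 in high, and low did not overlap with medium (difference -0.94, exact two-sided permutation p = 0.1).

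Il33, the nuclear alarm cytokine, was near the array medians in all gates. It read 4.20 on all 3 Ly6C low arrays, 4.19, 3.91 and 4.06 on Ly6C medium arrays and 4.43, 4.31 and 4.92 on Ly6C high arrays. High lay above the other gates, with replicate 3 the brightest. Medium minus high was -0.50 (SE 0.16, limma adjusted p = 0.449) and low minus high -0.36 (adjusted p = 0.274). The mean of the fibroblast markers, from a cell type known to make Il33, were also highest in Ly6C high. Endothelial markers averaged 4.50 to 4.94 in low, 4.72 to 4.78 in medium and 5.07 to 5.50 in high. Of these 8 markers 7 averaged under 6, and 1 (Kdr) passed as lower in low than in high, against 2.32% of all genes. Keratinocyte markers overlapped between the gates, with means of 4.95 to 5.12 in low, 4.89 to 5.19 in medium and 4.59 to 5.27 in high. Of the 8 measured, 1 (Sfn) passed as higher in low than in high, against 3.35% of all genes. The part of these cells in the Il33 values was not tested.

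Il1a, Il1b, Il1rn and Il1r1 shared a pattern over replicates that was seen in every gate. In these 4 of 9 members replicate 3 was the brightest array of Ly6C low, of Ly6C medium and of Ly6C high, against 4.64% of all genes. Replicates 1 and 2 were brightest in all gates for 0 of the 9 members, against 6.85% and 2.57% of all genes. Replicate 3 was singled out after its values were seen, so these shares describe the arrays. The mean of the neutrophil markers was likewise highest on replicate 3 of each gate (5.86 in low, 5.54 in medium and 4.92 in high). Not every neutrophil marker was, as Ly6g was brightest on Ly6C low replicate 2 (4.61) and Retnlg on Ly6C medium replicate 2 (6.36). The mean of the classical monocyte markers was also highest on replicate 3 of low and medium (9.49 and 10.47) and tied with replicate 2 in high (10.92). The mean of the tissue macrophage markers was lowest on replicate 3 of each gate (9.46, 7.53 and 6.65). The part of these cells in the pattern was not tested. Without replicate 3 of every gate, limma passed 4 of 9 members between low and high (Il1a, Il1rn, Il1r1 and Il18bp), all lower, and 2 between low and medium (Il1a and Il18bp). It then passed 683 of all genes for low versus high and 140 for low versus medium, fewer than the 1258 and 427 with all arrays.

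The genes nearest in pattern were sought for the members whose gate means differed by at least 1, which were Il1a and Il1r1. Likeness was the root mean square difference of log2 values over the 9 arrays after each gene was centred on its own mean, among 5900 genes with a mean of at least 6. Nearest to Il1a were Acod1, which makes the antimicrobial metabolite itaconate in activated macrophages (0.23), Inhba, a subunit of activin A (0.30), and Mmp13, a collagenase (0.35). Nearest to Il1r1 were Clcf1, a cytokine of the interleukin 6 family (0.19), Mxd1, a transcription factor that competes with MYC for its partner MAX (0.23), and Nlrp3, the inflammasome sensor (0.23). These genes were picked for following Il1a or Il1r1 on the same arrays, so their differences between gates are no separate evidence.

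**Figure D4:**
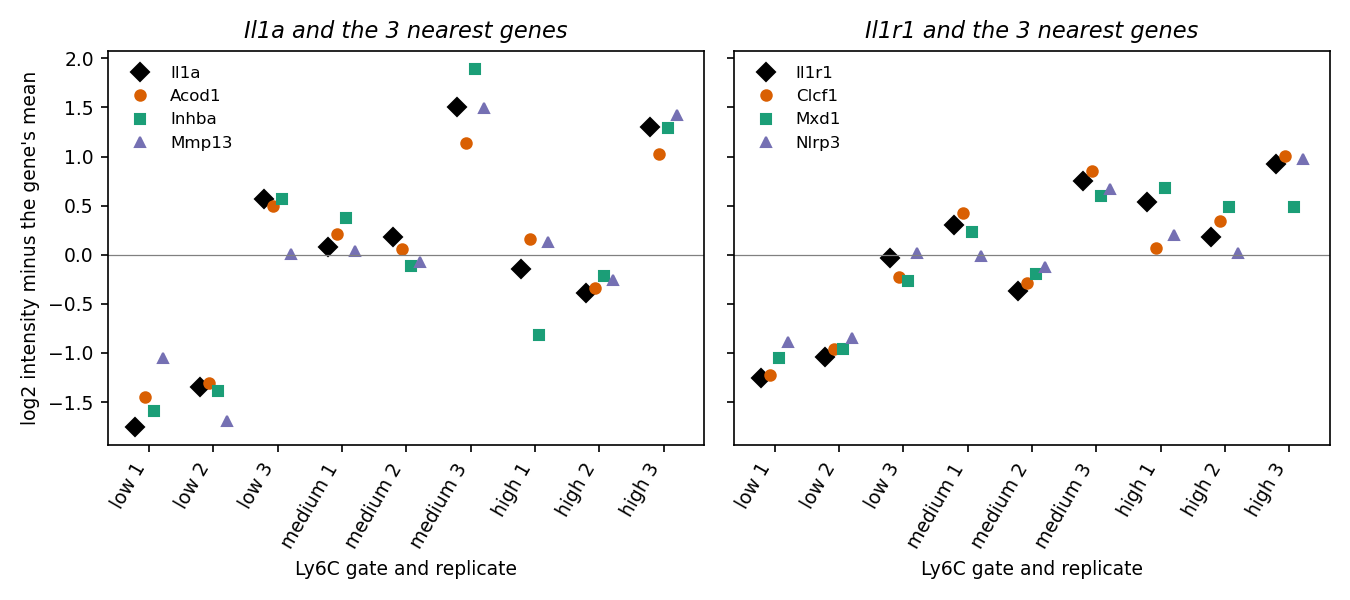
Log2 intensity minus each gene's own mean over 9 arrays (vertical axis) for Il1a (left) and Il1r1 (right), each with its 3 nearest genes, by array. Il1a and its 3 nearest genes are brightest on replicate 3 of every gate.

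The rest of the family and its pathway were read from lists of known members. Of 5 other ligands and 6 other receptors of the family, limma passed 0 in low versus high, in medium versus high and in low versus medium. Of all genes 5.67%, 0.239% and 1.93% passed there. At an unadjusted p under 0.05 there were 0 of the 11 in low versus high and in medium versus high, where 17.9% and 7.53% of all genes were. In low versus medium there were 2 receptors, against 14.1% of all genes. In every gate Il1f5, Il1f6, Il1f8, Il18r1, Il1rapl1 and Il1rapl2 averaged below the lowest array median of 3.93. For genes this dim, the lack of a call says little about a difference between gates. Il1f9, which encodes a ligand of the receptor from Il1rl2 and was chosen after its values were seen, varied by replicate. It read 4.77, 4.53 and 6.43 in Ly6C low, 3.49, 4.19 and 5.55 in Ly6C medium and 3.16, 4.40 and 5.29 in Ly6C high, again brightest on replicate 3. Il18r1, the binding chain of the interleukin 18 receptor, averaged 3.66, 3.59 and 3.48 in low, medium and high. Its partner chain Il18rap averaged 5.09 ± 0.47, 4.28 ± 0.38 and 4.58 ± 0.20 (low minus medium 0.82, limma adjusted p = 0.177). Sigirr, an inhibitory member of the receptor family, averaged 4.42, 4.39 and 4.40.

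Of 17 measured genes for signalling from the receptors, 1 was lower in low than in high and 0 higher, with a median log2 difference of -0.11, where 2.32% of all genes were lower and 3.35% higher. At an unadjusted p under 0.05 there were 5 of the 17, against 17.9% of all genes. The lower gene was Irak2, a kinase-like adaptor that sustains the signal. It read 8.42, 8.52 and 9.06 in Ly6C low, 9.38, 8.97 and 9.23 in Ly6C medium and 9.48, 9.59 and 9.56 in Ly6C high. Ly6C low replicate 3 again stood nearest to the other gates (low minus high -0.87, limma adjusted p = 0.0221). Leaving out 1 array at a time ended the call in 5 of 9 cases (up to an adjusted p of 0.0837 without Ly6C low replicate 2). Irak3, which damps the same signal, averaged 7.53 ± 0.56, 8.49 ± 0.45 and 8.55 ± 0.41 in low, medium and high (low minus high -1.02, adjusted p = 0.125). Myd88, the adaptor that links receptor and kinases, averaged 7.49, 7.70 and 7.85 (low minus high -0.35, adjusted p = 0.164). Between medium and high, and between low and medium, limma passed 0 of the 17, with 1 and 4 at an unadjusted p under 0.05, where 7.53% and 14.1% of all genes were.

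Genes for the cleavage and release of interleukin 1 went both ways. Of 15 measured, 2 were lower in low than in high (Mefv and Panx1) and 1 was higher (Nek7), with a median of -0.34, where 2.32% of all genes were lower and 3.35% higher. At an unadjusted p under 0.05 there were 9 of the 15, against 17.9% of all genes. Mefv, which encodes the inflammasome sensor pyrin, read 7.47, 7.63 and 8.27 in Ly6C low, 8.86, 9.07 and 9.47 in Ly6C medium and 9.32, 9.59 and 9.87 in Ly6C high. Ly6C low lay 3.49-fold under Ly6C high (-1.80 on the log2 scale, SE 0.24, limma adjusted p = 0.00382), and the call held whichever of the 9 arrays was left out. Ly6C low also lay 2.53-fold under Ly6C medium for Mefv (-1.34, limma adjusted p = 0.0299). Mefv was the only 1 of the 15 to pass there, against 1.93% of all genes (1.38% higher and 0.541% lower). At an unadjusted p under 0.05 there were 4 of the 15, against 14.1% of all genes. The Mefv call against medium missed the threshold on leaving out any of 6 arrays (adjusted p up to 0.111 without Ly6C low replicate 1). Nek7, a kinase that NLRP3 needs for activation, averaged 8.32 ± 0.06, 8.12 ± 0.07 and 7.37 ± 0.38 in low, medium and high (low minus high 0.95, limma adjusted p = 0.0144). The Nek7 call was lost without Ly6C low replicate 1 (0.0589), with only the 2 gates in the fit (0.0587) and without moderation over genes (0.0759). Panx1, a membrane channel that releases ATP, averaged 6.10 ± 0.11, 6.61 ± 0.15 and 6.76 ± 0.22 (low minus high -0.67, adjusted p = 0.0244), and it missed the threshold on leaving out any of 5 arrays (up to 0.0836 without Ly6C high replicate 3). Nlrp3 itself averaged 8.71 ± 0.51, 9.46 ± 0.43 and 9.69 ± 0.51 in low, medium and high (low minus high -0.98, adjusted p = 0.145), and Casp1, the protease, 7.67, 7.72 and 7.91 (adjusted p = 0.662). Without replicate 3 of every gate, Mefv and Nlrp3 were lower and P2rx7 higher, and the calls of Nek7 and Panx1 were lost (adjusted p = 0.118 and 0.216). Between medium and high limma passed 0 of the 15, with 3 at an unadjusted p under 0.05, where 7.53% of all genes were.

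Of 16 genes that interleukin 1 receptors are known to induce, 1 was lower in low than in high and 0 were higher, with a median of -0.47, where 2.32% of all genes were lower and 3.35% higher. At an unadjusted p under 0.05 there were 5 of the 16, against 17.9% of all genes. Saa3, an acute phase protein, averaged 7.22 ± 0.63 in Ly6C low, 8.02 ± 0.88 in Ly6C medium and 9.63 ± 1.07 in Ly6C high. Ly6C low lay 5.29-fold under Ly6C high (limma adjusted p = 0.0493), and leaving out any of 7 arrays ended the call (up to 0.162 without Ly6C low replicate 2). Il6 read 7.11, 6.88 and 8.83 in Ly6C low, 7.36, 8.46 and 9.76 in Ly6C medium and 9.42, 9.20 and 10.71 in Ly6C high, brightest on replicate 3 of each gate (low minus high -2.16, SE 0.70, adjusted p = 0.123). Ptgs2, the inducible prostaglandin synthase, averaged 11.04 ± 0.56, 11.91 ± 0.26 and 12.00 ± 0.26 in low, medium and high (low minus high -0.96, adjusted p = 0.0815). Without replicate 3 of every gate, Il6 and Ptgs2 were lower in low than in high and the Saa3 call was lost (adjusted p = 0.262). Between medium and high, and between low and medium, limma passed 0 of the 16, with 3 and 4 at an unadjusted p under 0.05, where 7.53% and 14.1% of all genes were. With only the 2 gates in the fit, the low versus high calls of Irak2, Panx1 and Saa3 were lost (adjusted p = 0.0588, 0.0608 and 0.0889), as they were without moderation (0.0995, 0.0859 and 0.193). So was the low versus medium call of Mefv (0.0695 and 0.16). Centring the arrays ended the Saa3 call (0.0515). Fibroblasts also respond to interleukin 1, and their markers were lower in low beside these genes, as given for Il1r1. Their part in these values was not tested.

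**Figure D5:**
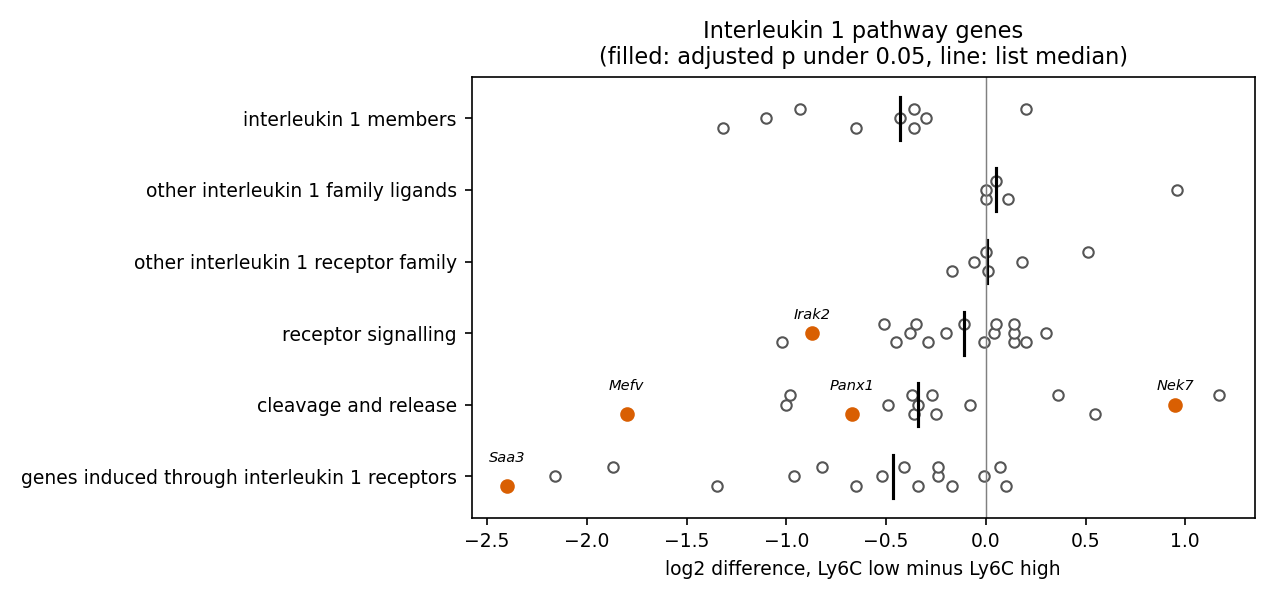
Log2 difference, Ly6C low minus Ly6C high (horizontal axis), of the 9 measured members and of the genes of 5 pathway lists, with filled points for an adjusted p under 0.05 and a line at each list's median. The members (median -0.43) and the induced genes (median -0.47) lie mostly below 0, and Irak2, Mefv, Panx1, Nek7 and Saa3 are the filled points.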

How the data were processed

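RNA of sorted cells was amplified before labelling and hybridized to Affymetrix arrays, per the labels' protocols. The values are log2 intensities per probe set that the authors deposited after RMA, per the submitters' processing notes. Version, settings and genome build are not given in the sources used here. RMA equalizes arrays, so a shift common to all genes cannot be seen, and it compresses dim probe sets.

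Of 41345 probe sets, 23521 had 1 gene symbol, 1814 had several and 16010 were not listed in the probe table. Values were used as deposited, and all 22180 genes entered the tests, dim ones too. Tests used limma 3.58.1 in R 4.3.3 (lmFit and eBayes, all 9 arrays, 6 residual degrees of freedom, two-sided) with Benjamini-Hochberg adjustment over all genes at 0.05. Differences within an array were tested by exact permutation (scipy 1.17.1). On simulated data of 22180 genes, the low versus high test found 65% of genes given a log2 difference of 1 and 98% at 2, with 4.65% of calls false. The simulated noise was independent between arrays, with no shift shared by a replicate number. These shares therefore need not hold for members with such a shift or a wide spread.

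The members, lists, tests and naming rule were chosen with earlier results of these data known. The rule names all members, up to 4 called genes of each pathway list, a fixed set, and the 3 genes nearest in pattern to members with gate means at least 1 apart. Of 20 signalling and 16 cleavage genes listed, 17 and 15 were measured. Alternatives were repeated quantile normalization, centring, the mean of probe sets, 2 filters on dim genes, a trended and robust prior, array weights, a replicate block, the 2 gates alone, no moderation, and leaving out each array. Leaving out replicate 3 of every gate was added after the data were seen.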

Additional observations from a re-analysis of the deposited data

How the results depend on the processing

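Between Ly6C low and Ly6C high, the count of members past the threshold was 0 with all genes and arrays and no replicate block. It was 2 under each filter on dim genes (Il1r1 and Il18bp, of 9 members and of the 7 left, where 13.1% and 20.7% of the genes kept passed). Without replicate 3 of every gate it was 4, and with a fixed replicate block, given below, also 4. Leaving out each array in turn gave 0 to 2. Between low and medium it was 1 among genes of at least 6 on 3 arrays (Il1r2, of the 7 members left, where 9.4% of genes passed) and 2 without replicate 3 of every gate, with 0 to 1 when leaving out each array, and between medium and high it was 0 in all alternatives run. The count over all genes was 1258 with all arrays, then 644 with only the 2 gates, 385 without moderation and 683 without replicate 3 of every gate (596 to 1243 leaving out each array) for low versus high. For medium versus high it was 53 with all arrays, then 1, 0 and 6 (2 to 72), and for low versus medium 427, then 211, 33 and 140 (119 to 522). The cause was not tested where fewer samples or genes do not give it.

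The replicate numbers gave no sure pairing. Over all genes, deviations of same-numbered arrays from their gate means correlated at -0.02 to 0.31, above 0.1 in 4 of 9 pairs, and 11 of 18 best matches fell on the same number, a hint from the data and not from the design. With the number as a fixed replicate block, 4 members passed in low versus high (Il1a, Il1b, Il1rn and Il1r1, limma adjusted p = 0.0167, 0.0424, 0.0148 and 0.00826) and 3 in low versus medium (Il1a, Il1rn and Il1r1, adjusted p = 0.0129, 0.0209 and 0.0404), all lower in low, and 0 in medium versus high. Over all genes 1564, 629 and 61 then passed in low versus high, low versus medium and medium versus high. As a random block, the number had an estimated correlation of 0 between the arrays that share it. That fit therefore returned the same calls as the fit without a block and is no separate check.

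Of the member differences recomputed, 534 kept direction and side of the threshold, 22 passed the threshold only in the alternative and 5 changed sign, Without Ly6C medium replicate 3, medium minus high was -0.12 for Il1a (-0.12 to 0.86 leaving out each array), -0.10 for Il1rn (-0.10 to 0.20) and 0.10 for Il1r2 minus Il1r1 (-0.83 to 0.10). Without Ly6C high replicate 1 it was -0.03 for Il1rn. Low minus medium was -0.01 for Il18 without Ly6C medium replicate 1 (-0.01 to 0.48) and 0.02 for Il1rap without replicate 3 of every gate. Outside that count, the within-array contrast Il1r2 minus Il1r1 also changed sign in medium versus high. It was 0.10 without Ly6C medium replicate 3 (-0.83 to 0.10 leaving out each array). Il33 lay near the array medians. Il1rap lay above them, at 5.04 to 5.67, but was also dim, and RMA compresses dim probe sets.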
